A study of Rattus norvegicus with 8 samples.

Results

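The 10 genes described here carry glucose into muscle and relay the first steps of the insulin signal: Slc2a4, Slc2a1, Hk2, Insr, Irs1, Irs2, Pik3r1, Akt2, Tbc1d1 and Tbc1d4. They were chosen by name, and every probe set (a group of short array probes for 1 transcript) annotated with a single one of these symbols was taken, which gave 17 of the 31042 probe sets tested, for 10 of 14217 named genes. Of the 10, 5 were represented by 1 probe set and 5 by several. The study asked whether a whey protein hydrolysate (WPH), milk whey cut into peptides, changes muscle gene expression relative to an amino acid mixture (AAM) of the same composition. All 8 animals were male Sprague-Dawley rats labelled as 6 weeks old, with no allele named in the labels, that had practised swimming for 3 days, were restricted to 5 g of chow the day before, and then swam for 2 h. Directly afterwards, 4 rats received by gavage carbohydrate with AAM and 4 received carbohydrate with WPH, both meals holding 44 kJ. The epitrochlearis, a small forelimb muscle rich in fast fibres, was profiled on 1 array per rat. Every rat swam and was fed, so neither swimming nor feeding is measured, and no source used here gives the time between meal and sampling. The labels do not say which rats shared a barrel of 4, so barrel and meal cannot be told apart.

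Muscle takes up glucose mainly through GLUT4, the product of Slc2a4, which waits in vesicles and moves to the surface after insulin or contraction. Insulin binds its receptor (Insr), which phosphorylates the adaptors IRS1 and IRS2. These recruit the PI 3-kinase through its regulatory subunit (Pik3r1), and the lipid that the kinase makes activates AKT2. AKT2 phosphorylates TBC1D4 and TBC1D1, which otherwise hold back the Rab proteins that release the vesicles. Contraction reaches the same TBC1D proteins through AMPK, and hexokinase II (Hk2) then traps the glucose as glucose 6-phosphate. Most of this control acts on proteins, by phosphorylation and traffic, which transcript levels do not show.

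For none of the 10 genes did a difference between the meals pass the test. Of the 17 probe sets, 7 were higher and 10 lower after WPH, where 47.3% of all probe sets tested were higher. With quantile normalization 11 were higher, and with median centring of the arrays 1. The 11 include Irs2, whose difference there was too near 0 for its sign to carry meaning. In all 17, the 4 WPH arrays overlapped the 4 AAM arrays, while the groups were apart in 2.23% of all probe sets tested. By limma with Benjamini-Hochberg adjustment over all probe sets, 0 of 17 passed an adjusted p of 0.05, as did 0% of all probe sets, and the adjusted p of each of the 17 rounded to 1.0. At an unadjusted p below 0.05 there were 0 of 17, against 3.58% of all probe sets (1.71% higher and 1.86% lower after WPH). Sizes are given as standardized differences, the WPH mean minus the AAM mean in units of the SD pooled within meals. Their median size was 0.449 over the 17 and 0.454 over all probe sets. With 4 rats a group the 95% intervals were wide, reaching from -2.58 to 2.75 over the 17, and all 17 included -1 or 1, so a difference of 1 SD in at least 1 direction lay within each of them.

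The deposited levels differ between arrays only far behind the decimal point, so they are given as millionths of the deposited unit above the lowest of the 8 arrays, in the order of replicates 1 to 4. Over all probe sets the SD across the 8 arrays had a median of 3.69 millionths. The 17 probe sets ranged over 6.76 to 512 millionths from the lowest to the highest array, and 14 of them had a larger SD than the median probe set. These distances cannot be read as fold changes, and they cannot be compared between probe sets as amounts of RNA.

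**Figure D1:**
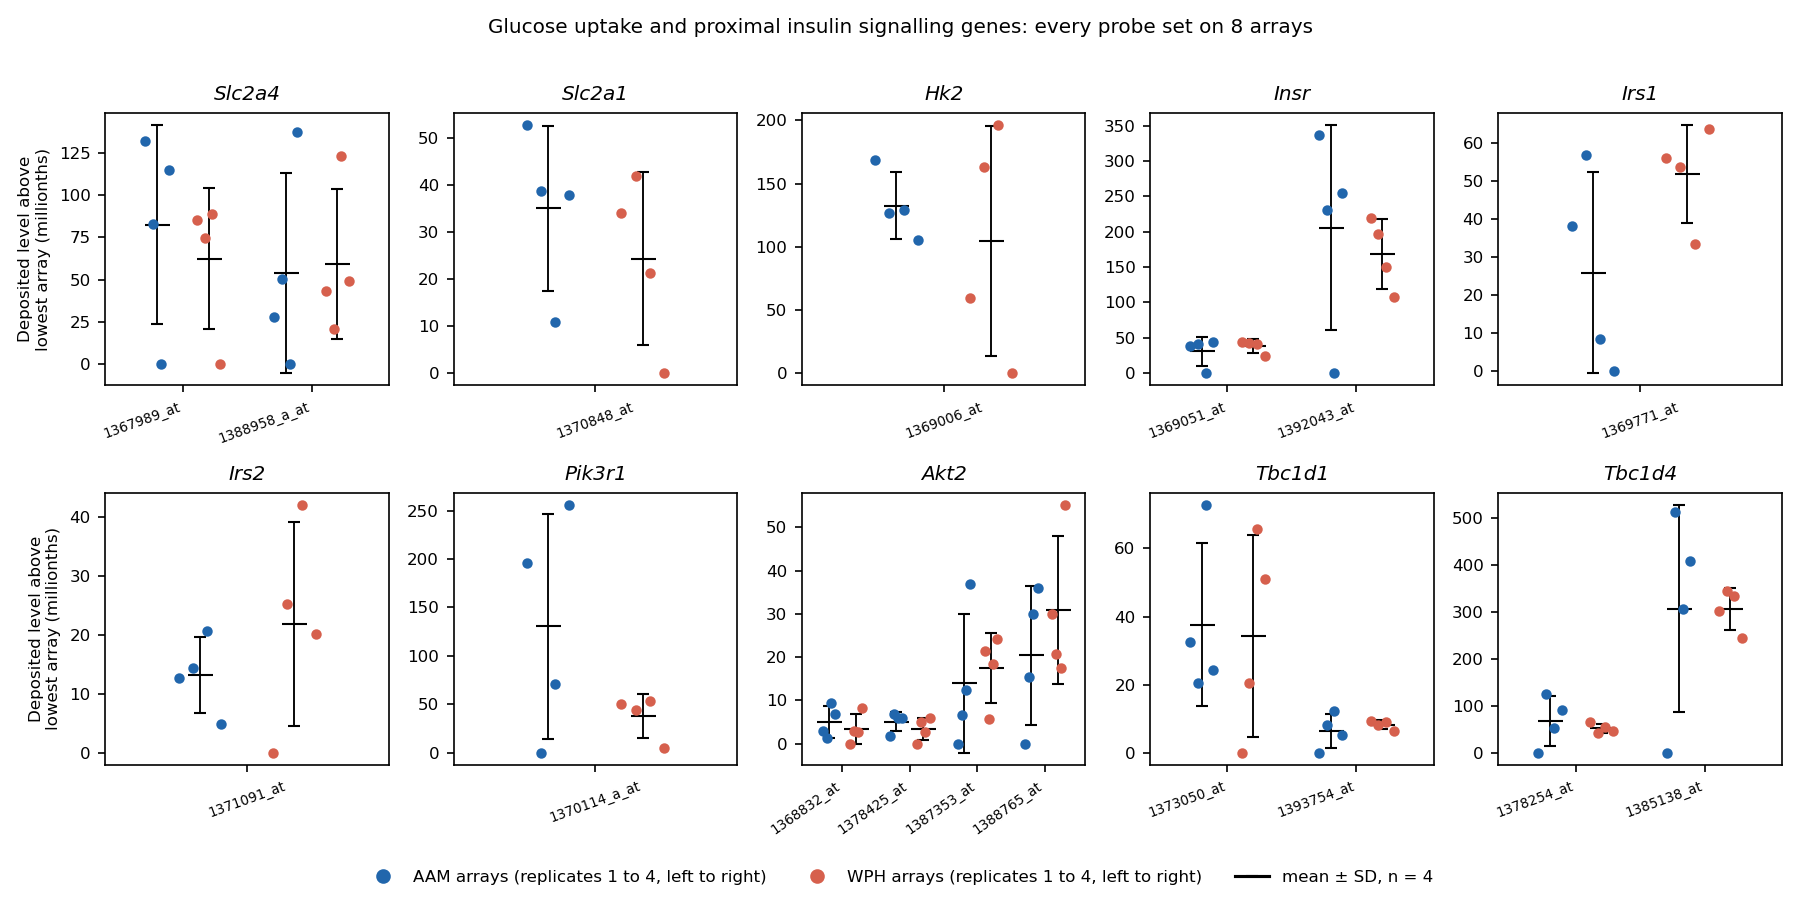
Deposited level of each of the 17 probe sets on the 8 arrays, in millionths above the lowest array (vertical axis, a separate scale for each gene), for AAM (blue) and WPH (red); each point is 1 rat, and bars show mean ± SD of n = 4. The points of both meals overlap in all 17 probe sets, and the AAM points of Tbc1d4 spread over 512 millionths in 1385138_at against a narrow band after WPH.

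Slc2a4 encodes GLUT4, the insulin- and contraction-responsive transporter of muscle and fat. Its probe set 1367989_at, at a mean level of 11.4, lay at 132, 83.1, 0 and 115 millionths after AAM and at 85.3, 74.8, 88.9 and 0.3 after WPH. Each meal thus held 1 low array, AAM replicate 3 and WPH replicate 4, and 3 higher ones. WPH minus AAM was -20.2 ± 36.0 millionths (SE, n = 4 per group), a standardized difference of -0.40 (95% interval -1.78 to 1.02, exact permutation p = 0.6). The second probe set, 1388958_a_at, whose suffix marks probes shared by alternative transcripts of 1 gene, had a mean level of 8.40. It lay at 28, 50.2, 0 and 137 millionths after AAM and at 43.5, 21.0, 123 and 49.0 after WPH. AAM replicate 3 was again the lowest of all 8 arrays, but WPH replicate 4 was not low here. The standardized difference was 0.10 (-1.29 to 1.48, exact permutation p = 0.886).

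Slc2a1 encodes GLUT1, the transporter of basal glucose entry, which is also abundant in endothelium, nerve sheath and red cells. Its single probe set, 1370848_at, lay at 52.7, 38.8, 10.8 and 37.8 millionths after AAM and at 34.1, 42.0, 21.4 and 0 after WPH. The highest array was AAM replicate 1 and the lowest WPH replicate 4; between them the meals were mixed. The standardized difference was -0.60 (-2.0 to 0.85, exact permutation p = 0.4). In bulk muscle, fewer cells of a type and less RNA per cell cannot be told apart. Markers of the cell types that carry GLUT1 gave no probe set past an adjusted p of 0.05: 9 of 13 endothelial probe sets, 10 of 15 of Schwann cell and nerve, and 2 of 5 of erythrocytes were higher after WPH.

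Hk2 encodes hexokinase II, the hexokinase that insulin and exercise raise in muscle. Its probe set 1369006_at lay at 169, 127, 129 and 105 millionths after AAM and at 59.7, 163, 196 and 0 after WPH. Here the WPH arrays held both the lowest (replicate 4) and the highest value (replicate 3), with an SD of 90.7 millionths against 26.9 after AAM. The standardized difference was -0.42 (-1.80 to 1.01, exact permutation p = 0.543). Quantile normalization turned it to 0.77.

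The insulin receptor gene Insr had a pair of probe sets. In 1369051_at the arrays lay at 38.7, 40.7, 0 and 43.5 millionths after AAM and at 44.0, 43.1, 41.7 and 23.5 after WPH. All but AAM replicate 3 and WPH replicate 4 fell between 38.7 and 44.0, so 6 rats had nearly the same level. In 1392043_at they lay at 337, 231, 0 and 255 millionths after AAM and at 219, 197, 150 and 108 after WPH. AAM replicate 3 was lowest here too, while the other 3 AAM arrays were above all 4 WPH arrays. The standardized differences were 0.46 (-0.97 to 1.85, exact permutation p = 0.514) and -0.34 (-1.73 to 1.07, exact permutation p = 0.629). Without AAM replicate 3 the second became -2.04 (limma's unadjusted p = 0.0332, adjusted p = 1) and the first turned to -0.377, so 1 array set the sign of the one and the size of the other.

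Irs1 and Irs2 encode the adaptors that couple the receptor to PI 3-kinase. Irs1 had the largest standardized difference of the 17 probe sets. Its probe set 1369771_at lay at 38.3, 57.0, 8.41 and 0 millionths after AAM and at 56.1, 53.7, 33.6 and 63.9 after WPH. AAM replicates 3 and 4 were below all WPH arrays, whereas AAM replicates 1 and 2 lay among them. WPH minus AAM was 25.9 ± 14.7 millionths (SE, n = 4 per group), a standardized difference of 1.25 (-0.34 to 2.75, limma's unadjusted p = 0.111, exact permutation p = 0.2). It stayed positive under all 15 alternatives run for it, from 0.338 to 2.24. Its mean level, 6.33, was at percentile 31.4 of all probe sets, so the alternative with brighter probe sets only did not hold it. The highest of the alternatives was without AAM replicate 2 (unadjusted p = 0.0237, adjusted p = 1 by limma).

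Irs2, whose transcript insulin lowers in liver, had 1 probe set, 1371091_at. It lay at 12.7, 14.4, 20.7 and 4.93 millionths after AAM and at 0, 25.2, 42.0 and 20.1 after WPH. WPH replicate 1 was the lowest array and WPH replicates 2 and 3 were the 2 highest. The standardized difference was 0.66 (-0.80 to 2.07, exact permutation p = 0.429), and it was 1.81 without WPH replicate 1, 0.197 without WPH replicate 3 and -0.116 with median centring.

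Pik3r1 encodes the regulatory subunit of PI 3-kinase. Its probe set 1370114_a_at lay at 196, 0, 71.1 and 256 millionths after AAM and at 50.5, 44.2, 53.5 and 4.26 after WPH. AAM replicates 1, 3 and 4 were above all WPH arrays and AAM replicate 2 was below all of them, so the groups overlapped through that array alone. WPH minus AAM was -92.5 ± 59.2 millionths (SE, n = 4 per group), a standardized difference of -1.10 (-2.58 to 0.45, limma's unadjusted p = 0.15, exact permutation p = 0.229). Without AAM replicate 2 it was -2.19 (unadjusted p = 0.026, adjusted p = 1 by limma) and without AAM replicate 4 it was -0.78.

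Akt2, the AKT isoform that insulin-stimulated glucose uptake depends on, had 4 probe sets, any pair of which gave the same rank to at most 3 of the 8 arrays. In 1388765_at, with a mean level of 8.66, the arrays lay at 0, 15.5, 30.0 and 36.0 millionths after AAM and at 30.0, 20.7, 17.4 and 55.2 after WPH. In 1387353_at they lay at 0, 6.71, 12.3 and 36.8 after AAM and at 21.4, 5.79, 18.5 and 24.2 after WPH. AAM replicate 1 was lowest in both of these, and their standardized differences were 0.63 (-0.82 to 2.04) and 0.28 (-1.13 to 1.66). The latter was 1.51 without AAM replicate 4 and -0.0945 without AAM replicate 1. The remaining probe sets, 1368832_at and 1378425_at, ranged over only 9.28 and 6.76 millionths and were lowest in WPH replicate 1. Their standardized differences were -0.45 (-1.84 to 0.98) and -0.71 (-2.13 to 0.75). The exact permutation p of the 4 probe sets ran from 0.257 to 0.743.

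Tbc1d1 and Tbc1d4 encode the Rab GTPase-activating proteins on which the insulin and contraction signals meet. The Tbc1d1 probe set 1373050_at lay at 32.6, 20.6, 72.8 and 24.4 millionths after AAM and at 0, 20.5, 65.8 and 51.1 after WPH. Its other probe set, 1393754_at, lay at 0, 8.11, 12.1 and 5.18 after AAM and at 9.18, 8.12, 9.04 and 6.40 after WPH. AAM replicate 3 was highest in both, and the meals overlapped in both. The standardized differences were -0.12 (-1.50 to 1.27, exact permutation p = 0.829) and 0.50 (-0.94 to 1.89, exact permutation p = 0.543).

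Tbc1d4, also called AS160, had a pair of probe sets that gave 5 of the 8 arrays the same rank, where the pairs of the other genes shared at most 3. In 1378254_at the arrays lay at 0, 124, 52.1 and 91.6 millionths after AAM and at 64.5, 42.4, 55.0 and 46.5 after WPH. In 1385138_at they lay at 0, 512, 306 and 409 after AAM and at 301, 344, 334 and 245 after WPH. In both, AAM replicate 1 was lowest, AAM replicate 2 highest and AAM replicate 4 second highest, with the WPH arrays in a narrow band between. The standardized differences were -0.39 (-1.78 to 1.03, exact permutation p = 0.629) and 0.00 (-1.39 to 1.38, exact permutation p = 1.0). Without AAM replicate 1 they were -1.55 and -1.39, and without AAM replicate 2 they were 0.139 and 0.49, so the sign rested on single arrays.

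**Figure D2:**
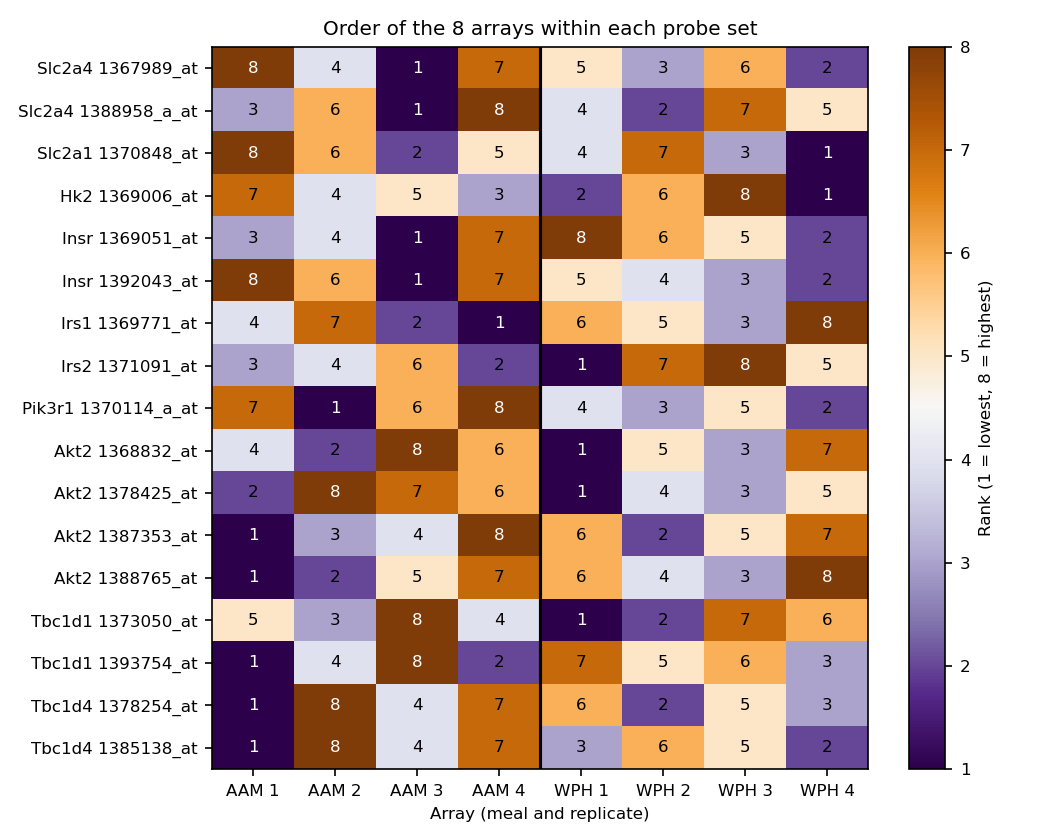
Rank of each array (columns, AAM left and WPH right of the line) within each of the 17 probe sets (rows), from 1 for the lowest to 8 for the highest. No row has ranks 1 to 4 on one side, AAM replicate 3 has rank 1 in both probe sets of Slc2a4 and of Insr, and both Tbc1d4 rows give AAM replicates 1 and 2 the ranks 1 and 8.

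Where a gene had several probe sets, they rarely gave the same sign. In 4 of the 5 such genes (Slc2a4, Insr, Akt2 and Tbc1d1) at least 1 probe set was higher and at least 1 lower after WPH. Tbc1d4 was the exception, with both differences below 0 and 1 of them rounding to 0.00. Single rats were nevertheless shared between probe sets of a gene. AAM replicate 3 was lowest in 4 of the 17 probe sets, all of Slc2a4 and Insr. AAM replicate 1 was lowest in 5, all of Akt2, Tbc1d1 and Tbc1d4, and WPH replicate 1 in 4, of Irs2, Akt2 and Tbc1d1. Over all probe sets tested, these arrays were lowest in 17.2%, 14.9% and 10.3%.

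**Figure D3:**
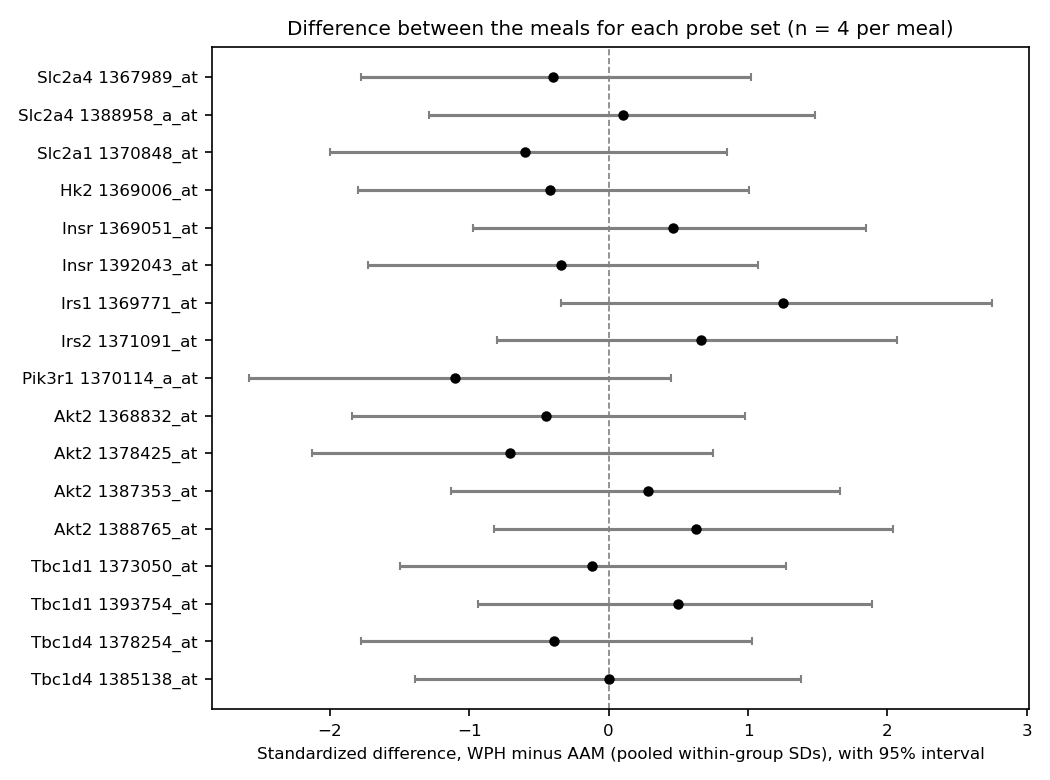
Standardized difference, WPH minus AAM in pooled within-meal SDs (horizontal axis), with its 95% interval from the noncentral t distribution, for each of the 17 probe sets (n = 4 per meal). All 17 intervals include 0; the largest differences are 1.25 for Irs1 and -1.10 for Pik3r1.

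In 15 of the 17 probe sets the meal means lay less than 1 pooled SD apart, and for several members the spread between rats was wider after AAM. The SD of the 4 AAM arrays was over 2 times that of the 4 WPH arrays in 7 of the 17 probe sets, and the reverse held in 2 (Hk2 and Irs2). The 7 were both probe sets of Insr and Tbc1d4, and those of Irs1, Pik3r1 and 1393754_at of Tbc1d1. The wide spread of Insr came from AAM replicate 3. Without it the AAM SD was 2.43 millionths against 9.77 after WPH in 1369051_at, and 55.5 against 49.5 in 1392043_at. The ratio in 1369051_at, 2.11, was also below 2 without WPH replicate 1, 2 or 3 (1.88, 1.83 and 1.78). It was over 2 without AAM replicate 1, 2 or 4 or WPH replicate 4. The Irs1 ratio, 2.05, was 1.56 and 1.90 without AAM replicates 2 and 4. It was 1.72 and 1.68 without WPH replicates 1 and 2, and over 2 without any other array. Over all 17, leaving out 1 array in turn (added after seeing the data) gave 5 to 10 probe sets with the AAM SD over 2 times the WPH SD. It gave 1 (without WPH replicate 1) to 5 (without AAM replicate 3) with the reverse. For Tbc1d4 the SD was 53.6 millionths after AAM and 9.82 after WPH in 1378254_at, and 221 and 44.5 in 1385138_at. For Pik3r1 it was 116 after AAM and 22.9 after WPH. Over all probe sets tested, the AAM SD was over 2 times the WPH SD in 18% and the reverse held in 10.5%. The median ratio of AAM to WPH SD was 1.40 over the 17 and 1.14 over all, and no test of this difference in spread was made.

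**Figure D4:**
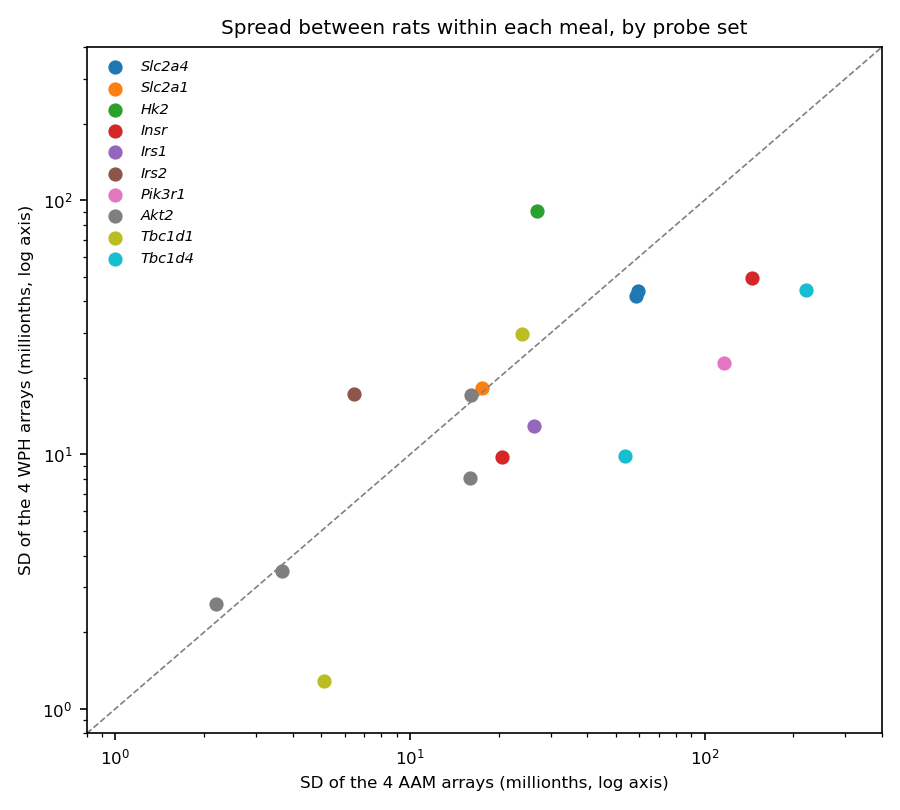
SD of the 4 AAM arrays (horizontal, log axis) against SD of the 4 WPH arrays (vertical, log axis) for each of the 17 probe sets, in millionths of the deposited unit; the dashed line marks equal SDs. Tbc1d4, Pik3r1, Insr and Irs1 lie below the line, with a wider spread after AAM, and Hk2 and Irs2 above it.

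The wider pathway was read from 101 other genes in 6 lists, of which 88 were measured by 160 probe sets. After WPH 80 were higher and 80 lower, and 0 passed an adjusted p of 0.05 by limma. At an unadjusted p below 0.05 there were 5 higher and 4 lower, or 5.62% against 3.58% of all probe sets, and the meals did not overlap in 7, or 4.38% against 2.23% of all. The gene with the smallest unadjusted p in each direction is named for each list, as values only.

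Among 20 measured partners and brakes of the receptor (38 probe sets), 21 probe sets were higher and 17 lower after WPH. Socs3, which encodes a feedback inhibitor that also acts on the insulin receptor, lay at 1.44, 1.20, 1.61 and 0 millionths after AAM and at 4.65, 2.14, 3.72 and 3.34 after WPH. All 4 WPH arrays were above the AAM arrays, with a standardized difference of 2.68 (0.60 to 4.66, limma's unadjusted p = 0.0111, adjusted p = 1.0), although the whole range was under 5 millionths. Trib3, a pseudokinase reported to bind AKT, lay at 22.2, 39.2, 36.3 and 24.9 millionths after AAM and at 5.85, 0, 11.8 and 21.3 after WPH in 1386321_s_at. All WPH arrays were lower there, with -2.40 (-4.27 to -0.43, unadjusted p = 0.0106, adjusted p = 1.0 by limma), but its other probe sets had 0.90 and -0.76. Quantile normalization turned Socs3 to -0.259 and Trib3 to 0.105, and median centring turned Socs3 to -0.414. The mean levels of Socs3 and of this Trib3 probe set, 6.48 and 6.32, were at percentiles 40.9 and 30.7 of all probe sets.

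Among 20 measured genes from PI 3-kinase to AKT (39 probe sets), 16 probe sets were higher and 23 lower after WPH. Pik3ca encodes the catalytic subunit that the Pik3r1 product binds. In 1374232_at it lay at 44.7, 31.1, 0 and 41.5 millionths after AAM and at 65.6, 70, 72 and 54.0 after WPH. All WPH arrays were higher, with 2.33 (0.39 to 4.17, unadjusted p = 0.0121, adjusted p = 1.0 by limma). The meals were apart in 1393499_at as well (2.11), and its 6 probe sets included 5 that were higher after WPH. AAM replicate 3 was the lowest array in those 5, as it was for Slc2a4 and Insr, and without it the first became 3.42. With quantile normalization that probe set had 0.0244 and with median centring 0.79. Pik3r2, another regulatory subunit, had -1.12 in 1376190_at (0.369 with quantile normalization) and the opposite sign in its other probe set.

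AMPK and its upstream kinase complex (12 genes, 23 probe sets) had 12 probe sets higher and 11 lower after WPH, with Prkag2 at 1.35 and Prkab1 at -1.66. Both encode AMPK subunits, and Prkag2 had 3 of 4 probe sets higher, with -1.04 in 1392263_at. Genes of GLUT4 vesicle traffic (24 genes, 44 probe sets) were divided 22 to 22. Ralgapa1, a Ral GTPase-activating subunit, was at 1.98 in 1390217_at, and its other probe sets ran from -0.89 to 0.92. Myo1c, a motor of vesicle fusion, was at -1.50 in 1369631_at and at 0.09 in its other probe set. Other sugar transporters and hexokinases (9 genes, 12 probe sets) had 5 higher and 7 lower. Slc2a9, a urate and hexose transporter, was at 0.64 and Slc2a2, the transporter of liver and beta cells, at -1.71. The Slc2a2 probe set was near the floor, with a mean level of 5.81, at percentile 3.87 of all probe sets. It ranged over 6.38 millionths. The alpha-arrestin genes Txnip, Arrdc3 and Arrdc4, the first of which restrains glucose uptake, had 4 of 4 probe sets higher after WPH. Of all probe sets tested, 47.3% were higher. The largest difference was 1.19 for Arrdc4. The others were 0.40 and 0.36 for Arrdc3, whose pair ranked the 8 arrays in the same order, and 0.19 for Txnip. No probe set of these lists passed the test. The named differences also moved under alternatives that kept all 8 arrays. The sign turned for Prkag2 (to -0.707), Slc2a9 (to -0.509), and Prkab1, Myo1c and Slc2a2 (each to 0.707). Ralgapa1 fell as low as 0.104 and Arrdc4 as low as 0.0643.

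**Figure D5:**
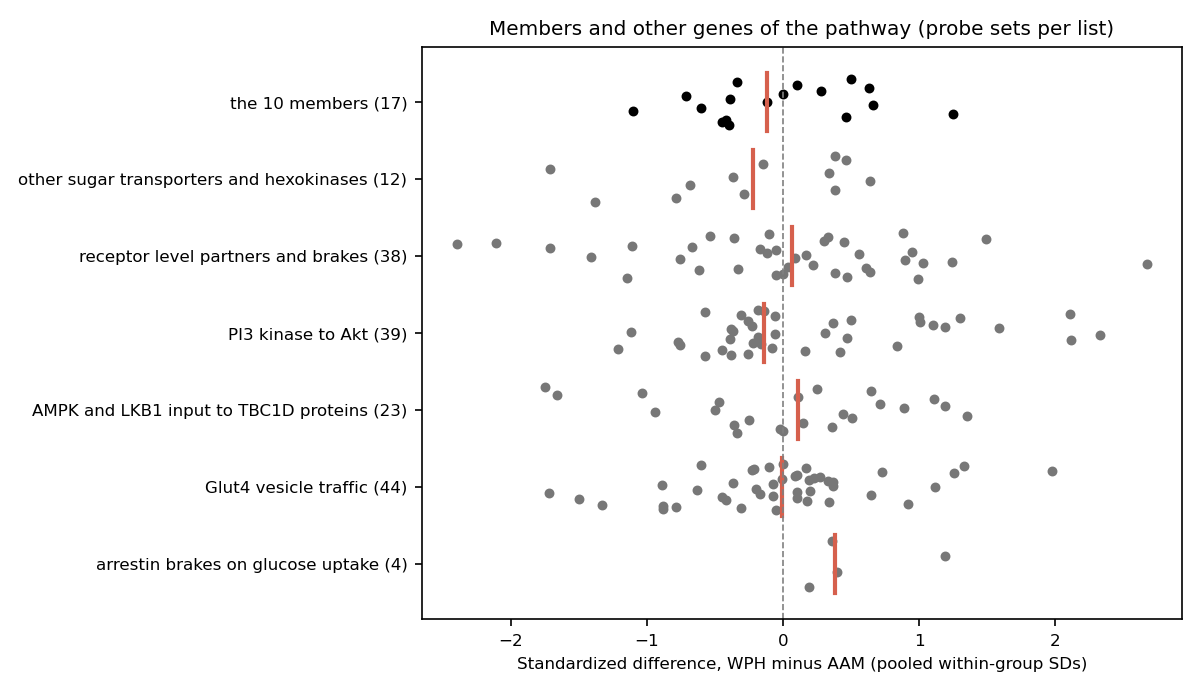
Standardized difference, WPH minus AAM in pooled within-meal SDs (horizontal axis), of each probe set of the 10 members (black) and of 6 lists of other pathway genes (grey), with the list median as a red bar and the number of probe sets in parentheses. List medians lie between -0.225 and 0.379, and the points farthest from 0 are Socs3 at 2.68 and Trib3 at -2.40.

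The tissue label was checked on fibre markers. All 11 probe sets of muscle fibre markers and all 16 of fast fibre markers had mean levels above the 90th percentile of all probe sets. None of the 10 marker lists held a probe set past an adjusted p of 0.05 by limma. Adipocyte markers, from cells that also hold GLUT4, were lower after WPH in 9 of 10 probe sets, where 47.3% of all probe sets were higher. The median standardized difference of the adipocyte markers was -0.363, and 0 of them had an unadjusted p below 0.05 by limma. Other lists leaned to 1 side as well. Muscle fibre markers were higher after WPH in 8 of 11 probe sets (median 0.624) and fast fibre markers in 13 of 16 (0.543). Slow fibre markers were lower in 11 of 16 (-0.431), and fibroblast markers were higher in 8 of 10 (0.229). WPH replicate 4 was the lowest or second lowest array for Slc2a1, Hk2, Pik3r1, both Insr probe sets and 1 each of Slc2a4 and Tbc1d4, and the highest for Irs1 and 1 probe set of Akt2. It had the highest mean z-score of fibroblast (1.42), muscle fibre (1.08) and macrophage markers (0.867) and of fast fibre markers, 0.745, where the AAM arrays ran from -0.613 to 0.143 and the other WPH arrays from -0.183 to 0.438. Its slow fibre score was the lowest, -0.89, where the AAM arrays ran from -0.194 to 0.805 and the other WPH arrays from -0.784 to 0.787. AAM replicate 3, the lowest array of Slc2a4 and Insr, had the lowest muscle fibre score (-0.693) and the highest adipocyte (0.871) and erythrocyte scores (1.17). WPH replicate 3, the lowest array of 0 member probe sets, had nearly the same erythrocyte score (1.14). Its muscle fibre and adipocyte scores were 0.222 and 0.0361. The muscle fibre score counts each probe set alike, although several hardly varied over the 8 arrays. Acta1 ranged over 0.01 millionths, Tnnc2 over 0.04, Myl1 over 0.05 and Ckm over 0.1. Tnnt3 1371247_at, also a fast fibre marker, ranged over 0.19. The muscle fibre score thus rests in part on such tiny differences and cannot be read as fibre content. The part of these markers in the members' values was not tested.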

How the data were processed

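Levels were measured on Affymetrix 3' arrays from 100 ng of total RNA, 1 array per rat. The authors' deposited values are 1 level per probe set and array on a log2-like scale, from 5.28 to 14.2. The submitters' processing notes name R 2.7.2. For background, normalization and summary, the method is not given in sources used here. Scale and centring therefore stay unknown. The median level was 6.66, with array medians within 66.7 millionths, and no 2 arrays were identical.

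Of 31099 probe sets, 57 controls were left out. Symbols came from the platform annotation (20826 probe sets with 1 symbol, 436 with several, 9780 unnamed here), and all 17 member probe sets matched a current gene of that symbol. WPH was compared with AAM by limma 3.58.1 in R 4.3.3 (lmFit, eBayes, two-sided), adjusted by Benjamini-Hochberg over 31042 probe sets, threshold 0.05, and checked on simulated data. Exact two-sided permutation tests over 8 arrays cannot go below p = 0.0286. Intervals of standardized differences are 95% noncentral t intervals (6 degrees of freedom). The number of arrays limits the precision. Members and lists were chosen with earlier results of these data known. The rule for named genes takes every member probe set and, per other list, the smallest unadjusted p in each direction. The labels name nothing that same-numbered rats share beyond the number, so no pairing entered the fit. Correlations of their deviations were 0.157, 0.134, 0.064 and -0.0708. Differently numbered rats were not correlated for reference, so these values cannot decide whether rats were paired. Each sample is a biological replicate per the labels. Alternatives were quantile normalization, 2 centrings, brighter probe sets only, the replicate block, 1 array left out at a time, weights for arrays, a trended robust prior, 1 probe set per gene, ranks and a threshold of 0.1.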

Additional observations from a re-analysis of the deposited data

Results flagged for a closer look

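In 3 of 56 groups of 4 arrays (the members and the named pathway genes, each meal separately), 1 array stood apart from the other 3 by Dixon's ratio, where chance flags about 1 in 20, or 2.8. All were low arrays of members. For Insr 1369051_at the ratio was 0.889 both for AAM replicate 3 and for WPH replicate 4. For Slc2a4 1367989_at it was 0.841 for WPH replicate 4. AAM replicate 3 was the lowest of the AAM arrays in that Slc2a4 probe set too, at 0 millionths, without passing the critical value of 0.829.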

How the results depend on the processing

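Across 18 alternatives, 0 member and 0 other pathway probe sets were called, and the smallest adjusted p of a member was 0.731. Over all probe sets 0 were called except with quantile normalization (5, none of them a member). The number of member probe sets higher after WPH, 7 of 17, was 11 with quantile normalization, 1 with median centring, 4 of the 12 brighter probe sets and 3 of 10 with 1 probe set per gene. Leaving out 1 array gave 5 to 10. Array medians differed by up to 66.7 millionths, more than the range of several members, while neighbouring sorted values near the median lay 54.9 apart. Centring on the median deviation of each array, chosen after seeing the data, shifted arrays by at most 0.131 millionths and kept 7. With the replicate block the count was 7 and 0 probe sets were called. Pik3r2 1376190_at, -1.12 in the main fit, had -7.11 there (limma's unadjusted p = 0.00153, adjusted p = 1). That value is in units of the residual SD left after the block, not of the SD pooled within meals. The block changed this SD and not the mean difference, -6.27 millionths. Of 260 member values under alternatives, 28 changed sign and 8 moved by 1 SD or more, 6 of them on leaving out 1 array. Only Slc2a1, Irs1, Pik3r1 and Akt2 1378425_at never turned sign, although Slc2a1 was 0 with quantile normalization. The cause of these moves was not tested.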
